A study of Equus caballus with 2 samples.

Results

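The plasminogen activators and serpin genes described here are *PLAU*, *PLAT*, *PLAUR*, *SERPINE2* and *SERPINF1*, 5 genes chosen by symbol out of 21426 features listed for each library. The 5 symbols matched 6 features, because *SERPINE2* was listed under 2 Ensembl identifiers. Endometrial fibroblasts of 4 mares, taken from healthy or only mildly fibrotic endometrium, were grown at passage 3 on collagen-coated hydrogels, and both groups went from 10% to 4% serum and then to serum-free medium with 0.1% BSA. Control cells were given no supplement, and treated cells 10 ng/ml of human recombinant TGF-β1 for 24 h, from 48 to 72 h of culture. Cells were detached with trypsin and by scraping, and each treatment was made into 1 droplet library from a pool of the 4 mares. The third treatment of the study, MFGE8, was not analysed here.

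Plasminogen is turned into plasmin, a protease that dissolves fibrin and cleaves matrix proteins, by urokinase (uPA, the product of *PLAU*) and by tissue plasminogen activator (tPA, the product of *PLAT*). Urokinase works at the cell surface, where it is held by its receptor uPAR (*PLAUR*). Serpins are a family of proteins of which most trap and inactivate serine proteases, and *SERPINE2* encodes protease nexin-1, which inhibits thrombin, urokinase and tPA. *SERPINF1* encodes pigment epithelium-derived factor (PEDF), a secreted member of the serpin family that is not known to inhibit proteases and is best known for limiting the growth of blood vessels. In connective tissue, the balance of activators and inhibitors is known as one of the controls on the removal of fibrin and matrix.

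After the filters of the methods (20000 or more UMIs, 3500 or more genes and a mitochondrial share below 4%), 3865 control and 4513 TGF-β1 cells were kept, with 210497250 and 219731144 UMIs in total and a median of 50313 and 43142 UMIs per cell. A UMI, or unique molecular identifier, marks 1 captured transcript end. *VIM*, *COL1A1* and *COL1A2*, markers of fibroblasts, were found in 100% of the cells of both libraries, and *PDGFRB* in 94.4% of the control and 82.3% of the TGF-β1 cells. Of 10 epithelial, endothelial and leucocyte markers, 6 (*EPCAM*, *CDH1*, *PECAM1*, *CDH5*, *PTPRC* and *CD3E*) were found in under 0.2% of cells, and the highest share was that of *MUC1* (3.42% of control and 2.50% of TGF-β1 cells). No cell type that should lack the 5 genes was present, so that free RNA could not be measured. The libraries shared 6 barcodes, 2 of them among kept cells. With 1 library per condition there was no replicate, no test was made, and an effect of the preparation of a library cannot be told apart from that of the treatment. Intervals below are 95% intervals of counting error alone, exact for levels, ratios and shares and combined from the exact limits for differences between shares, and they do not hold the difference between mares or cultures.

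The 5 genes did not move together. In the TGF-β1 library the urokinase receptor *PLAUR* was 1.77-fold higher, *PLAT* was 2.77-fold lower and *SERPINF1* was 2.17-fold lower than in the control library, whereas *PLAU* differed by 1.07-fold and *SERPINE2* was at a low level in both. Of the 4 genes with a mean of at least 10 UMIs per 1000000 (CPM) over both libraries, 2 were lower past 2-fold and 0 were higher past 2-fold. Over all 7658 features with such a level, 2.13% were lower past 2-fold, 2.3% were higher past 2-fold and 4.43% were past it in either direction. With a minimum of 1 CPM, which *SERPINE2* also met, 6.91% of 12116 features were past 2-fold. The median log2 ratio of the 7658 features was 0.0082.

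**Figure D1:**
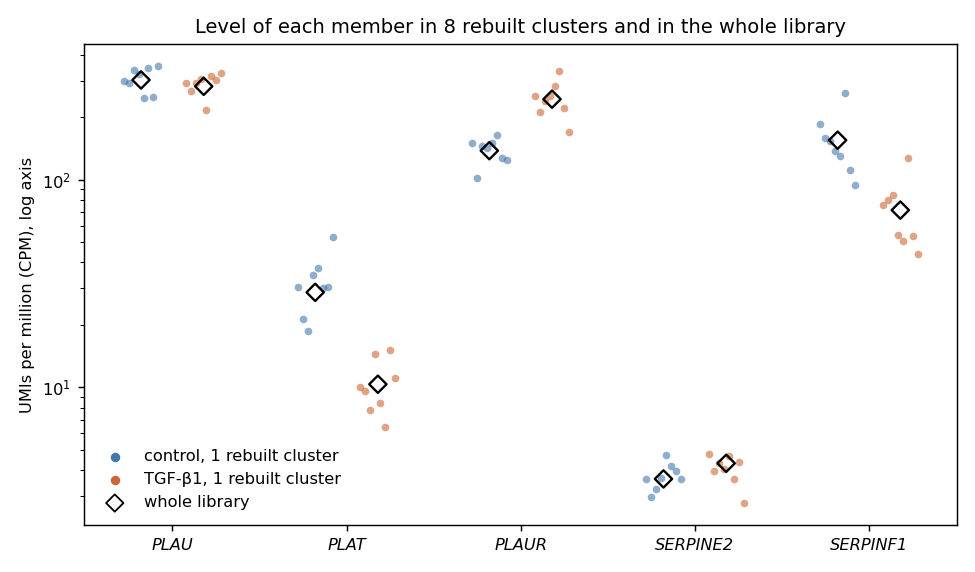
Level of the 5 genes in UMIs per 1000000 UMIs (CPM, log axis) in the control and TGF-β1 libraries, with 1 point for each of 8 rebuilt clusters of cells and a diamond for the whole library. At this resolution the points of *PLAT* lie at 18.7 to 53.2 CPM in control clusters and 6.42 to 15.2 CPM in TGF-β1 clusters. Those of *PLAUR* do not overlap either, but narrowly, with 164.3 CPM as the highest control and 169.9 CPM as the lowest TGF-β1 value. Those of *SERPINF1* (93.7 to 260.1 CPM and 43.7 to 126 CPM), *PLAU* and *SERPINE2* overlap. At a resolution of 0.8 the ranges of *PLAT* overlap too. How many of all features have ranges that do not overlap was not counted.

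Of the activators, *PLAU* (ENSECAG00000007351) had 63536 control UMIs and 61816 TGF-β1 UMIs. This was 302 CPM (interval 299 to 304) in control cells and 281 CPM (279 to 284) in TGF-β1 cells, a log2 ratio (TGF-β1 over control, here and below) of -0.10 (-0.12 to -0.09). Urokinase transcripts were thus at nearly the same level in both libraries, and 33.8% of the 7658 features had a lower ratio. Because cells differed in depth, 20000 UMIs were drawn at random from each cell (thinning) before cells were compared. A *PLAU* UMI was then present in 97.5% of the control and 97.1% of the TGF-β1 cells, and the difference of -0.35 percentage points had an interval of -1.06 to 0.37. With 10000 UMIs per cell, where the shares were 89.2% and 87.2%, the difference was -2.02 points (-3.41 to -0.62). The median cell held 5 thinned *PLAU* UMIs in both libraries, with 2 UMIs at the 10th percentile of control cells and 1 at that of TGF-β1 cells, and 11 UMIs at the 90th percentile of both.

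*PLAT* (ENSECAG00000007571) had 6036 UMIs in the control library and 2275 UMIs in the TGF-β1 library, or 28.7 CPM (28.0 to 29.4) and 10.4 CPM (9.93 to 10.8). Its log2 ratio was -1.47 (-1.54 to -1.40), and 68 of the 7658 features had a lower one. After thinning to 20000 UMIs, 39.0% (37.5% to 40.6%) of the control and 17.1% (16.0% to 18.3%) of the TGF-β1 cells held a *PLAT* UMI, a difference of -21.9 percentage points. Without thinning these shares were 64.4% and 33.0%. Among the thinned cells with *PLAT*, the mean was 1.52 UMIs in control and 1.24 UMIs in TGF-β1 cells.

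The receptor gene *PLAUR* (ENSECAG00000022127) had 29011 UMIs in the control library and 53612 UMIs in the TGF-β1 library. Its level was 138 CPM (136 to 139) in control cells and 244 CPM (242 to 246) in TGF-β1 cells, a log2 ratio of 0.82 (0.80 to 0.84), which stayed under 2-fold. A higher ratio was seen in 3.38% of the 7658 features. In thinned cells, *PLAUR* was present in 85.7% (84.5% to 86.8%) of the control and 96.7% (96.2% to 97.2%) of the TGF-β1 cells. The whole distribution of the receptor lay higher after TGF-β1, at a median of 2 thinned UMIs per control cell and 4 per TGF-β1 cell, and with 6 and 9 UMIs at the 90th percentile.

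**Figure D2:**
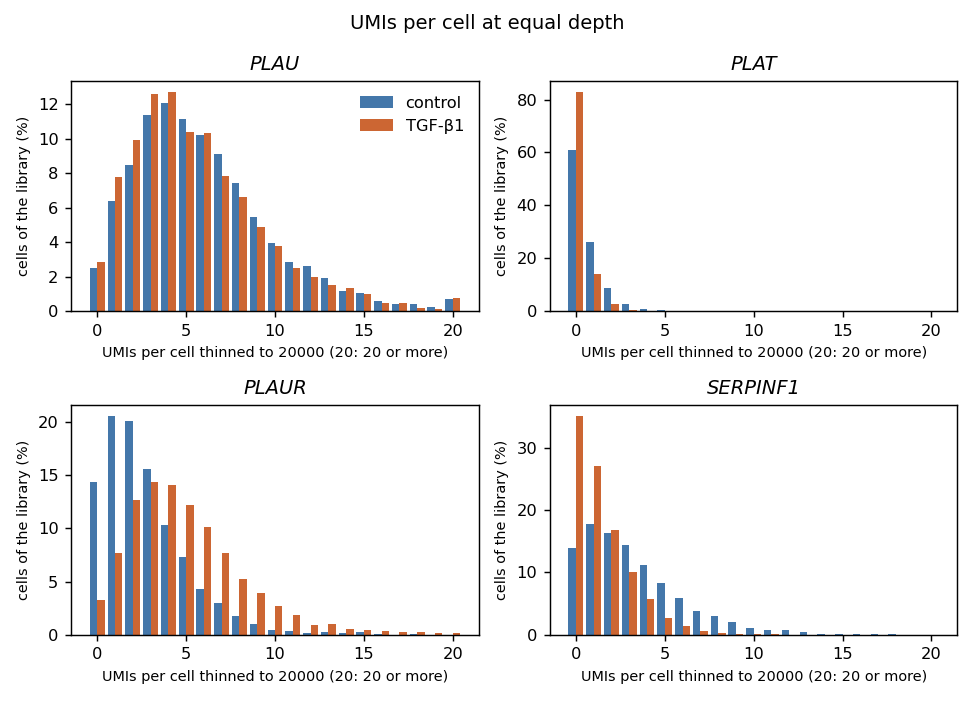
Share of the cells of each library (%) by the number of UMIs of *PLAU*, *PLAT*, *PLAUR* and *SERPINF1* in cells thinned to 20000 UMIs, with 20 or more UMIs in the last bar. The bars of *PLAU* lie close together, those of *PLAUR* lie farther right in the TGF-β1 library, and the share of cells with 0 UMIs is larger in the TGF-β1 library for *PLAT* and *SERPINF1*.

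*SERPINF1* (ENSECAG00000022279) had 32592 UMIs in the control library and 15674 UMIs in the TGF-β1 library. The PEDF gene had 155 CPM (153 to 157) in control and 71.3 CPM (70.2 to 72.5) in TGF-β1 cells, a log2 ratio of -1.12 (-1.15 to -1.09), with 134 of the 7658 features lower. The share of thinned cells with a *SERPINF1* UMI was 86.0% (84.9% to 87.1%) in the control and 64.9% (63.5% to 66.3%) in the TGF-β1 library. The median was 3 UMIs per control cell and 1 per TGF-β1 cell, and the highest cells held 18 and 13 UMIs.

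*SERPINE2*, the protease nexin-1 gene, had a low level under both of its identifiers. Without thinning, a UMI of it was present in 17.1% of the control and 17.5% of the TGF-β1 cells. ENSECAG00000016075 had 386 control and 417 TGF-β1 UMIs, or 1.83 and 1.90 CPM, a log2 ratio of 0.05 (-0.15 to 0.25). ENSECAG00000028571 had 377 control and 530 TGF-β1 UMIs, or 1.79 and 2.41 CPM, a log2 ratio of 0.43 (0.24 to 0.62). Summed over both features, the level was 3.62 CPM (3.37 to 3.89) in control and 4.31 CPM (4.04 to 4.59) in TGF-β1 cells, a log2 ratio of 0.25 (0.11 to 0.39). In thinned cells, *SERPINE2* was present in 6.52% (5.76% to 7.34%) of the control and 7.51% (6.76% to 8.32%) of the TGF-β1 cells. The difference was 0.99 percentage points (-0.12 to 2.10), and in a second random draw at the same depth it was 1.51 points (0.37 to 2.64), so that whether its interval held 0 depended on the draw. No change is read from these shares. RefSeq, in its TB-T2T horse assembly, pairs the symbol with 1 gene. If the features are copies of 1 gene, reads that fit both could not be placed by the counting, and the level of *SERPINE2* is uncertain for that reason.

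In cells thinned to 20000 UMIs, the variance of the UMIs over cells divided by their mean, which is near 1 for counts that differ by sampling alone, was 2.56 in control and 2.71 in TGF-β1 cells for *PLAU*, 2.11 and 2.24 for *PLAUR*, and 2.47 and 1.84 for *SERPINF1*. For *PLAT* it was 1.54 and 1.33, and for *SERPINE2* it was 0.99 and 1.10. This measure depends on the mean, which was 5.97 and 5.62 UMIs for *PLAU* and 0.59 and 0.21 UMIs for *PLAT*, and the genes are not ranked by it.

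The kept cells were clustered again with the 5 genes, the other genes of the plasminogen system named below and all other serpins left out of the clustering, which gave 8 rebuilt clusters with 59 to 1235 cells per library. *PLAT* was lower in the TGF-β1 library in all 8, with log2 ratios from -2.26 in cluster 7 (32 TGF-β1 UMIs) to -1.01 in cluster 6, and past 2-fold in all 8. At a finer resolution of 0.8 it was past 2-fold in 9 of 10 clusters, with -0.91 in the remaining one. *SERPINF1* was lower in all 8, from -1.36 to -0.87, and past 2-fold in 6. *PLAUR* was higher in all 8, from 0.45 (0.28 to 0.62) in cluster 7 to 1.04 (0.99 to 1.10) in cluster 1, and past 2-fold in 2. These 3 genes kept 1 direction in all 8 clusters, which were built without them. The clusters are parts of the same 2 libraries, so they are not independent of each other. How many of all features kept 1 direction was not counted. Differences between the clusters were not tested, and the mare that a cell came from was not known.

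*PLAU* was lower in the TGF-β1 library in 7 of the 8 clusters, with log2 ratios between -0.20 and -0.03 and 5 intervals below 0. In cluster 6 it was higher, with 251 CPM in control and 300 CPM in TGF-β1 cells, a log2 ratio of 0.26 (0.18 to 0.34). This cluster, of 133 control and 158 TGF-β1 cells, was cycling-like. Each of 9 cycling markers that could be matched exceeded the remaining cells by over 2-fold there, *TOP2A* was its leading gene, and its cells had a median of 68855 UMIs in control and 55928 UMIs in the TGF-β1 library. The part of cell cycle or depth in the *PLAU* value was not tested. For *SERPINE2*, 5 ratios lay above 0 and 3 below, with 3 intervals above 0 and 0 below.

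Levels also differed among the clusters within a library. In control cells, *PLAT* lay between 18.7 CPM in cluster 2, whose leading genes were *KRT7* and *KRT8*, and 53.2 CPM in cluster 7, a range of 2.85-fold, and *SERPINF1* between 93.7 CPM in cluster 7 and 260.1 CPM in cluster 5, a range of 2.78-fold. *PLAU* ranged only 1.44-fold, from 246 to 353 CPM, and *PLAUR* 1.61-fold. At a resolution of 0.8, the control range of *PLAT* was 18.6 to 59.4 CPM and its TGF-β1 range 6.40 to 31.7 CPM, so that the ranges of the clusters overlapped there.

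Whether the genes were found in the same cells was examined in thinned cells. Of the 5 genes, 3 were found together in 52.4% (50.9% to 54.0%) of the control and 54.2% (52.8% to 55.7%) of the TGF-β1 cells, and 4 in 29.2% (27.8% to 30.6%) and 14.7% (13.7% to 15.8%). The combination of *PLAUR* and *SERPINF1* was seen in 73.5% of the control and 63.0% of the TGF-β1 cells, and that of *PLAT* and *PLAUR* in 33.2% and 16.5%. These shares follow the shares of each gene, so each gene was then compared between cells with and without another.

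Finding 1 of the genes told little of finding the next. Among control cells, *PLAUR* was found in 85.0% (83.1% to 86.8%) of those with *PLAT* and 86.1% (84.6% to 87.5%) of those without it, and among TGF-β1 cells in 96.2% and 96.8%. *SERPINF1* was found in 84.7% (82.8% to 86.5%) of control cells with *PLAT* and 86.8% (85.4% to 88.2%) of those without, and in 64.8% and 64.9% of TGF-β1 cells. Since nearly all cells held *PLAU*, they were split at its median of 5 thinned UMIs. In cells above it, *SERPINF1* was found in 87.4% against 84.8% of control cells and in 67.7% (65.6% to 69.8%) against 62.7% (60.7% to 64.5%) of TGF-β1 cells. These differences were 2.62 points (0.40 to 4.84) and 5.10 points (2.26 to 7.91). With 10000 UMIs and a split by whether cells held *PLAU* at all, they were 4.53 and 5.80 points. *PLAT* was found 5.06 percentage points (2.80 to 7.35) more often in TGF-β1 cells above the median than in the others, and 0.59 points more often when cells thinned to 10000 UMIs were split by whether they held *PLAU* at all. The correlations among the 5 genes over cells, on the scale log2(thinned UMIs + 1), lay between -0.03 and 0.08 in both libraries. These counts are sparse, and nothing is read from values of this size.

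For each of the 5 genes, the genes with the most similar pattern over cells were sought among 7213 genes with a symbol and at least 10 CPM, by the lower of the control and TGF-β1 Pearson correlations on the same scale. The cells of a library share its preparation and, after thinning, their depth. For *PLAUR* these were *IL11* (0.19 in control and 0.21 in TGF-β1 cells), a cytokine of the interleukin-6 family, *TAGLN2* (0.25 and 0.17) and *TIMP1* (0.22 and 0.16), an inhibitor of matrix metalloproteinases. For *SERPINF1* they were *B2M* (0.24 and 0.20), the light chain of MHC class I, *CST3* (0.20 and 0.17), the cysteine protease inhibitor cystatin C, and *SPON2* (0.22 and 0.15). For *PLAT* they were *HTRA3* (0.16 and 0.15), a serine protease, *TFPI* (0.12 and 0.13), the inhibitor of the tissue factor pathway, and *EDNRB* (0.21 and 0.11), an endothelin receptor. For *PLAU* they were *IGFBP7* (0.14 and 0.17), *MMP2* (0.13 and 0.10) and *STRA6* (0.10 and 0.18). For *SERPINE2* they were *THBS2* (0.06 and 0.06), *DCN* (0.05 and 0.05) and *MT-ATP6* (0.05 and 0.06). The most opposite patterns were looked at after the values were known, and the largest of them was that of *PLAT* with *ACTA2*, the smooth muscle actin gene of contractile fibroblasts (-0.25 and -0.17).

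The size of these relations can be seen when the thinned cells of a library are put in order of the other gene and divided into 4 equal parts. *PLAT* was found in 54.8% (51.6% to 58.0%) of the control cells with the least *ACTA2*, then in 38.7% and 34.9%, and in 27.6% (24.8% to 30.6%) of those with the most. In the TGF-β1 library it was found in 23.9% (21.5% to 26.5%), 16.7%, 15.8% and 12.1% (10.3% to 14.2%) of cells in the same order. *SERPINF1* was found in 79.2% of the control cells with the least *B2M* and 90.9% of those with the most, and in 54.5% and 75.5% of TGF-β1 cells. The mean of *PLAUR* was 2.40 thinned UMIs in control cells with the least *IL11* and 3.37 UMIs in those with the most, and 4.16 and 5.88 UMIs in TGF-β1 cells. Cells with equal counts were divided by their order in the data. In control cells the first part held 0 *IL11* UMIs and the second 0 to 1, so that the order of these 2 parts is partly arbitrary. In each of the 4 parts, the TGF-β1 library had less *PLAT*, less *SERPINF1* and more *PLAUR* than the control library, although the parts were set within each library and span different UMI counts of the other gene. The genes were picked in these same cells, and the shares are a description.

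**Figure D3:**
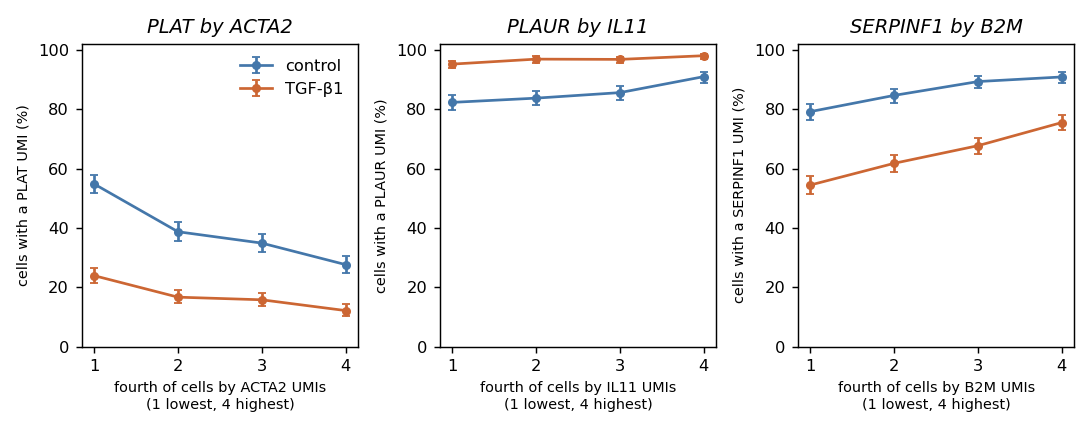
Share of thinned cells (%) with a UMI of *PLAT*, *PLAUR* or *SERPINF1* in 4 equal parts of each library ordered by the UMIs of *ACTA2*, *IL11* or *B2M*, with exact 95% binomial intervals. Cells with equal counts of the ordering gene were divided between parts by their order in the data. *PLAT* goes from 54.8% to 27.6% in control cells and from 23.9% to 12.1% in TGF-β1 cells as *ACTA2* goes from least to most.

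Other genes of the plasminogen system were taken from lists of 85 symbols, of which 81 were found and 39 had a mean of at least 10 CPM. Of these 39, 7 were higher and 4 lower past 2-fold, which is 28.2% against the 4.43% of all features, and their median log2 ratio was -0.04. The lists were written with earlier results of these data known, and nothing particular to them is read from the share. The same holds for the counts of each list below, beside which 2.3% of all features were higher and 2.13% lower past 2-fold. The plasminogen gene itself was not matched by symbol.

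Among other inhibitors of plasminogen activation, *SERPINB2*, which encodes plasminogen activator inhibitor-2, was 2.75-fold higher in the TGF-β1 library, with 126 and 346 CPM, a log2 ratio of 1.46 (1.44 to 1.48). Its share of thinned cells was 33.4% (31.9% to 34.9%) and 64.2% (62.8% to 65.6%), and it was past 2-fold higher in 7 of the 8 clusters, while cluster 7 had a log2 ratio of 0.06 (-0.05 to 0.17). Its lowest ratio over the clusters turned with the resolution, to -0.54 (-0.67 to -0.41) at 0.3 and 0.54 (0.46 to 0.62) at 0.8. *SERPING1*, which encodes the inhibitor of complement C1, was past 2-fold lower, with 15.2 CPM in control and 5.03 CPM in TGF-β1 cells, a log2 ratio of -1.59 (-1.69 to -1.49).

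Of 5 surface receptors of plasminogen with at least 10 CPM, 2 were past 2-fold lower and 0 past 2-fold higher, against 2.13% and 2.3% of all features. Nothing about receptors as a class is read from a list of this size. *S100A10*, which forms a plasminogen-binding complex with annexin A2, was 1018 CPM in control and 264 CPM in TGF-β1 cells, a log2 ratio of -1.95 (-1.96 to -1.94), and it was past 2-fold lower in all 8 clusters, and in 5 of 6 at a resolution of 0.3, where the remaining one had -0.98. Its partner *ANXA2* had 1605 and 1508 CPM (-0.09), and *ENO1*, a glycolysis enzyme that also binds plasminogen, had 1439 and 1345 CPM (-0.10). *KRT8*, a keratin that can act as a plasminogen receptor, was the other gene past 2-fold, with 114 and 4.48 CPM. Its log2 ratio was -4.67 (-4.77 to -4.58), but only 25.8% of thinned control and 3.19% of thinned TGF-β1 cells held it.

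Of 12 receptors for uptake of protease complexes and partners of uPAR, 2 were past 2-fold higher and 1 past 2-fold lower. *ITGB3*, the integrin chain of vitronectin receptors, had 6.31 and 16.6 CPM (1.39), and *ITGA5*, the chain of the fibronectin receptor, lay at the limit with 1.00 (0.97 to 1.03). *ITGB1* had 709 and 915 CPM (0.37), and *LRPAP1*, the chaperone of the uptake receptor LRP1, 164 and 177 CPM (0.10). *CAV1*, the main protein of caveolae, was lower, with 101 and 39.0 CPM (-1.37). Of the proteases that can activate the urokinase precursor, *CTSB* (cathepsin B) was the 1 gene with at least 10 CPM and had 191 and 285 CPM, a log2 ratio of 0.58 (0.56 to 0.60), and *KLKB1* (plasma prekallikrein) had 6.07 and 4.66 CPM (-0.38).

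Among 5 thrombin and tissue factor genes with at least 10 CPM, the thrombin receptor *F2R* was at the limit of 2-fold, with a log2 ratio of 1.00 (0.95 to 1.06). *TFPI2* had 202 and 112 CPM (-0.85), and *F3*, the tissue factor gene, 137 and 162 CPM (0.25). Under 10 CPM, the related receptor *F2RL1* had a log2 ratio of 2.15 from 130 control and 601 TGF-β1 UMIs, *F2RL2* had -1.06, and *THBD*, which encodes thrombomodulin, had -2.06 (-2.19 to -1.92). Of the substrates of plasmin and urokinase, 2 of 5 were past 2-fold, *FN1* (fibronectin) with 1.65 and *LTBP1*, the latent TGF-β binding protein, with 134 and 353 CPM (1.40, 1.38 to 1.42), and below 10 CPM *MMP1* and *MMP9* had 1.70 and 1.52. Neither of the 2 genes of PEDF receptors with at least 10 CPM was past 2-fold, *RPSA* with -0.32 and *PLXDC2* with -0.05.

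Of 6 remaining serpins with at least 10 CPM, 1 was past 2-fold. *SERPINB10* had 7.39 and 33.5 CPM, a log2 ratio of 2.18 (2.10 to 2.26). It was past 2-fold higher in 7 of the 8 clusters, while cluster 7 went the other way with -1.56 (-1.88 to -1.25). *SERPINH1*, the collagen chaperone HSP47, had 1783 and 2044 CPM (0.20), *SERPINB8* 138 and 135 CPM (-0.03), *SERPINB9*, the granzyme B inhibitor, 61.8 and 39.9 CPM (-0.63), *SERPINB6* 274 and 166 CPM (-0.72), and *SERPINB1*, the inhibitor of neutrophil elastase, 17.9 and 10.1 CPM (-0.83).

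**Figure D4:**
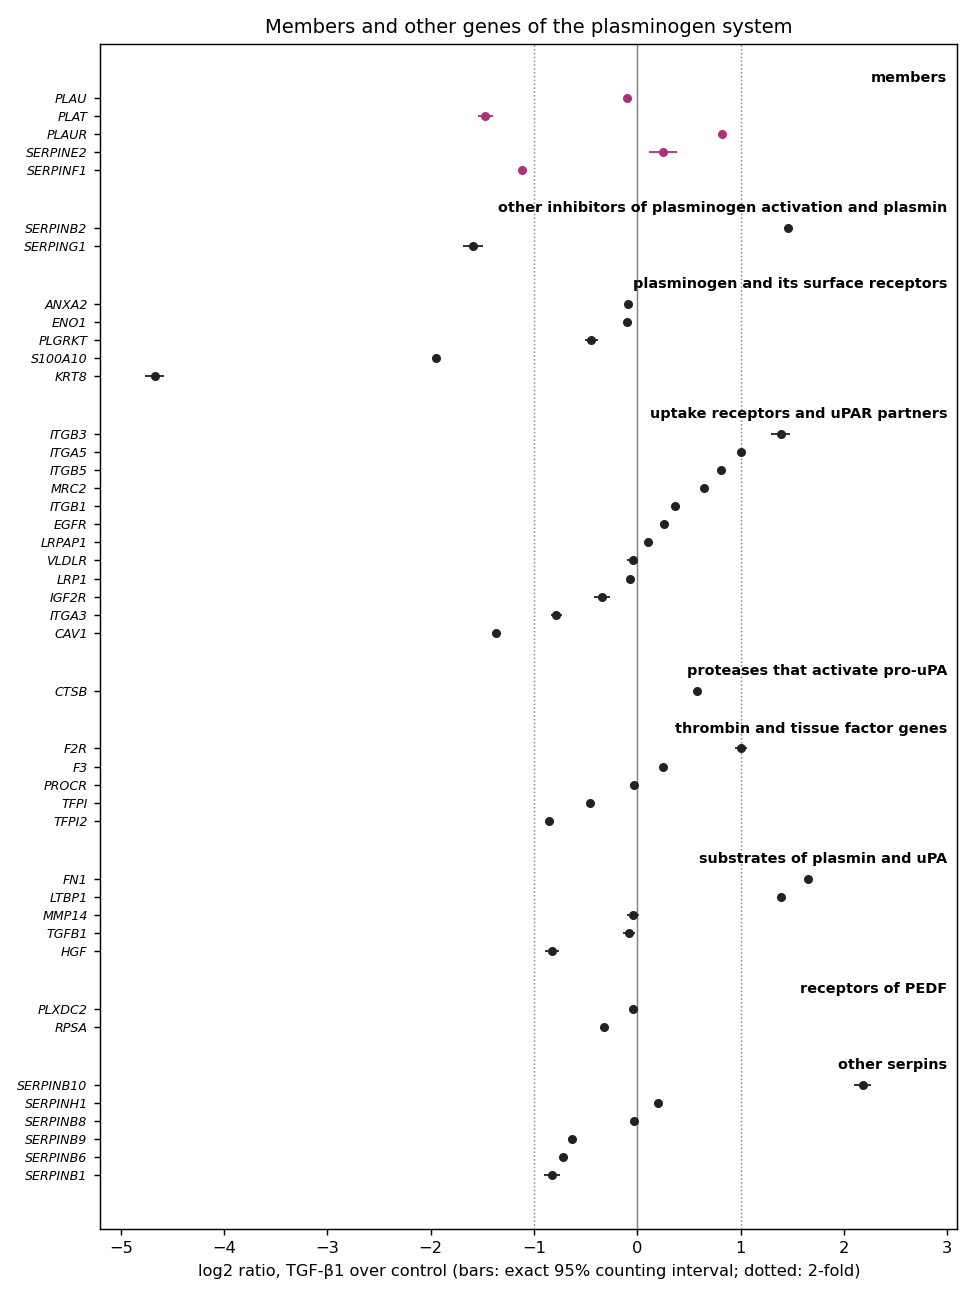
Log2 ratio of TGF-β1 over control for the 5 genes and for 38 other genes of the plasminogen system with a mean of at least 10 CPM, grouped by role, with exact 95% intervals of counting error and dotted lines at 2-fold. *PLAT* (-1.47) and *SERPINF1* (-1.12) lie left of the lower line, *PLAUR* (0.82) lies between 0 and the upper line, and *SERPINB2* (1.46) and *SERPING1* (-1.59) lie past the lines on opposite sides.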

How the data were processed

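Equine endometrial fibroblasts were sequenced with a droplet 3′ kit as 1 control and 1 TGF-β1 library. The deposited values are UMI counts per gene and barcode without normalization, made by the authors with Cell Ranger (7.1.0 in the methods, 8.0.1 in the file header) on EquCab3.0 with the Ensembl annotation. The files also held barcodes outside the study's limits, which were applied here (20000 or more UMIs, 3500 or more genes, below 4% mitochondrial UMIs). Doublets, which the study removed by genotype, were not removed, and cells above the 98th percentile of UMIs were left out in an alternative. UMIs were summed per library and scaled to 1000000 UMIs (CPM) with pandas 2.3.3, scipy 1.17.1 and numpy 2.4.6 (Python 3.11.15). Ratios are without a pseudocount. Intervals are exact, binomial (Clopper-Pearson) for ratios and shares and Poisson for levels, and those of differences between shares combine the exact limits of both. They cover counting error only. Clusters were built in Seurat 5.3.0 (R 4.3.3) with 2000 variable genes, 30 dimensions, canonical correlation integration and a resolution of 0.5, and 88 features of the 5 genes, the lists and the serpins were left out of the variable genes. A cluster was called cycling-like where the cycling markers found were all over 2-fold higher, a limit set after the values were seen.

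The 5 genes and the lists were chosen with earlier results of these data known. Named are the 5 genes, members of a list with 1 or more CPM on average that were past 2-fold or among the 2 with the highest level of their list, serpins with at least 10 CPM, and the 3 most similar genes of each of the 5. The calculation of the ratios was checked on simulated data for TGF-β1 against control with 7660 genes. The simulated counts held counting error alone, and the planted changes were larger than the 2-fold limit. In them 200 of 200 changed genes were found, 0 others were called, and the true value lay within 94.9% of the intervals. This outcome follows from the setting, which held no difference between mares, cells or preparations, and it says nothing on the reported ratios. Alternatives were other filters on cells, another size factor, the mean over cells, equal cluster shares, other thinning depths, other limits of level and size, and other resolutions. Figures were drawn in matplotlib 3.10.9. One gene of the lists, which is part of the counts over the lists, is not reported here.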

Additional observations from a re-analysis of the deposited data

Results flagged for a closer look

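*PLAU* in rebuilt cluster 6, the cycling-like one, had a log2 ratio (TGF-β1 over control) of 0.26 (0.18 to 0.34), whereas 5 of the other clusters had intervals below 0. The difference between clusters was not tested, since each cluster holds 1 sum per library. Without cluster 6, the log2 ratio of *PLAU* over the remaining 3732 control and 4355 TGF-β1 cells was -0.12.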

How the results depend on the processing

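With 1 library per condition, no replicate could be left out, and the depth of the cells limits the shares of cells. No paired analysis was possible because each condition is 1 pool of 4 mares, whose cells could not be separated here without reads. Each of the 5 genes kept its sign under all 10 alternatives for its ratio (7 planned and 3 added after seeing the data), *PLAT* (-1.50 to -1.42) and *SERPINF1* (-1.16 to -1.12) past 2-fold in all 10, *PLAUR* (0.82 to 0.85), *PLAU* (-0.12 to -0.09) and *SERPINE2* (0.24 to 0.30) in 0. Of 129 values under an alternative, 111 stayed within the interval of the reported value or, for counts of genes, within 1.5 times it. With the mean of per-cell CPM the log2 ratio of *PLAUR* was 0.85 and that of *SERPINF1* -1.15, with the mean of thinned UMIs that of *SERPINF1* was -1.16, and without the cycling cluster that of *PLAU* was -0.12 (the last 2 settings were chosen after seeing the data). A 1.5-fold limit gave 19 list genes and 970 features, and a minimum of 1 CPM gave 837 features, against 11 and 339. The difference in the share of cells (percentage points) moved with depth, without thinning to -31.4 for *PLAT*, 3.12 for *PLAUR* and -12.8 for *SERPINF1*, and with 10000 UMIs to -2.02 for *PLAU*, -13.0 for *PLAT*, 19.8 for *PLAUR* and -24.3 for *SERPINF1*. At a resolution of 0.8 the lowest cluster ratio of *PLAUR* was 0.70. With 10000 UMIs, the difference in *PLAT* between TGF-β1 cells with and without *PLAU* (in place of above and below its median) was 0.59, that in *SERPINE2* between control cells with and without *PLAUR* changed sign to 0.64, and that in *SERPINF1* between TGF-β1 cells with and without *SERPINE2* changed sign to -4.83. The reported differences of the last 2 pairs were -1.66 (-4.36 to 0.63) and 2.57 (-2.90 to 7.76). These intervals include 0. The cause of the other changes was not tested.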

Other observations

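The 2 *SERPINE2* features were found together in 3 thinned control and 14 thinned TGF-β1 cells. The second was found in 2.46% (0.51% to 7.02%) of the 122 control cells with the first and in 3.47% of those without it, and in the TGF-β1 library in 9.40% (5.23% to 15.3%) and 4.35% (3.77% to 5.00%).

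*SERPINB10* lies next to *SERPINB2* in RefSeq's TB-T2T horse assembly. It was found in 10.2% (8.62% to 12.0%) of thinned control cells with *SERPINB2* and 1.75% (1.28% to 2.33%) of those without, and in 34.8% (33.1% to 36.6%) and 9.48% of TGF-β1 cells. In rebuilt cluster 7 (100 control cells, 59 TGF-β1 cells) it had 104 CPM in control and 35.4 CPM in TGF-β1 cells, a log2 ratio of -1.56 (-1.88 to -1.25), while it was past 2-fold higher in the TGF-β1 library in the other 7 clusters. At a resolution of 0.8 its lowest ratio over the clusters was -0.65 (-0.85 to -0.44), which is not past 2-fold.

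In the barcodes that failed the filters, 519 in the control and 611 in the TGF-β1 library, *PLAT* had 39.4 CPM from 149 UMIs and 31.8 CPM from 142 UMIs. *PLAU* had 349 and 309 CPM there, *PLAUR* 120 and 255 CPM, and *SERPINF1* 99.9 and 46.6 CPM.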
